A study of Mus musculus with 273 samples.

Results

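The miR-29 family consists of 4 of the 1226 miRNA hairpins counted in this series, mmu-mir-29b-1 and mmu-mir-29a from a locus on chromosome 6 and mmu-mir-29b-2 and mmu-mir-29c from a locus on chromosome 1; the species prefix mmu is left out below. The members were chosen by name, with earlier results of these data known. All 4 were detected in every one of the 273 libraries and passed the filter on low counts in each tissue. The libraries came from wild type C57BL/6J male mice aged 26 weeks, an inbred laboratory strain, with 78 libraries of right cortex, 46 of right striatum, 72 of hypothalamus and 77 of liver. Tissue was collected every 3 h from 0 to 36 h. Times 24 h apart were joined into groups by zeitgeber time (ZT), by convention the hours after lights on, although the light schedule is not given in the sources used here. The joining left 31 tissue-by-ZT groups, each of 2 to 12 libraries; striatum had no ZT15 group, 2 libraries at ZT18 and 5 at ZT21. The labels tie the libraries to 79 animals, of which 42 gave all 4 tissues.

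miR-29 miRNAs are known as repressors of genes of the extracellular matrix, among them collagens, elastin and fibrillins, and of the DNA methyltransferases that act de novo. In liver they are known from hepatic stellate cells, the collagen-producing cells of this organ, where miR-29 falls in fibrosis. In brain the family is known to increase as neurons mature and to repress pro-apoptotic genes of the BH3-only group. Each locus is known to give a shared primary transcript, from which the pair of hairpins is cut and each hairpin is processed to a mature miRNA from its 3′ arm (3p) and a usually scarcer one from its 5′ arm (5p).

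The mature sequences, from RefSeq (GRCm38.p6), are shown because they set which reads can be told apart. Bases 2 to 8, the seed that pairs with targets, are in capitals.
miR-29a-3p: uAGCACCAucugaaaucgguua
miR-29b-3p: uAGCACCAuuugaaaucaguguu
miR-29c-3p: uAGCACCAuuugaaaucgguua
miR-29b-1-5p: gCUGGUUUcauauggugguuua
miR-29b-2-5p: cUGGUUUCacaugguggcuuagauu
The 3 mature 3p forms carry the same seed, and no other of the 1679 mature miRNAs in the RefSeq table has it. With positions counted from the 5′ end, miR-29a-3p and miR-29c-3p differ by a single base, C10U. miR-29c-3p and miR-29b-3p differ over the first 22 bases by G18A, U21G and A22U. The hairpins mir-29b-1 and mir-29b-2 give an identical miR-29b-3p, which lies in a run of 25 bases shared by both hairpins, so a miR-29b-3p read matches both loci. Their 5p arms differ in the aligned 21 bases by U11C and U19C, numbered along miR-29b-1-5p, and start at different bases. A hairpin count adds both arms, and how the authors treated reads that match more than 1 place is not stated in the sources used here. The counts of mir-29b-1 and mir-29b-2 therefore depend on that step, and its part in the results was not tested.

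In GRCm38, Mir29a lies at chr6:31062660-31062747 and Mir29b-1 at chr6:31063023-31063093, both on the minus strand and 275 bases apart. Apart from 2 bases of Mir29b-1 that reach into an exon of the long intergenic RNA Gm27019, the GENCODE M21 annotation placed neither in another gene. Mir29b-2 lies at chr1:195037040-195037120 and Mir29c at chr1:195037547-195037634, both on the plus strand and 426 bases apart. Both are within an exon of the non-coding transcript A330023F24Rik, and on the opposite strand both are covered by exon and UTR sequence of Cd46, which encodes a complement regulatory protein.

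Library totals ran from 1079380 to 5236177 counts, except in striatum, where ZT9 replicate 6 held 26341 and the next lowest library 743902. That library, striatum ZT21 replicate 3, cortex ZT15 replicate 1 and hypothalamus ZT0 replicate 12 stand apart in the series, and the tests and ratios below were also computed without them. Levels are given in CPM, counts scaled to a library total of 1000000, and a count of 0 would allow up to 3 counts, or 0.573 to 1.51 CPM in liver, 0.602 to 2.58 CPM in cortex, 0.759 to 2.78 CPM in hypothalamus and 0.746 to 114 CPM in striatum. Tissue labels matched the marker miRNAs: mir-122, the hepatocyte miRNA, had 21398 ± 1647 CPM in liver (SD, n = 77) and at most 58.4 CPM in any brain library, and the 8 neuron markers summed to at most 30.2 CPM in liver and to at least 2359 CPM in brain. All 5 hepatocyte markers summed to at least 248980 CPM in liver and to at most 7511 CPM in brain. Among them mir-192 was not low in brain, with means of 2126 CPM in cortex, 2386 CPM in striatum and 2084 CPM in hypothalamus. Of the neuron markers, the 3 mir-124 hairpins had means between 0.244 and 10.8 CPM in the brain regions and were at 0 in liver.

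Most of the family's hairpin counts came from mir-29a in every tissue. Its share of the family's counts was 88.1% ± 1.08 in cortex (SD, n = 78) and 86.8% ± 1.23 in liver (SD, n = 77). Striatum and hypothalamus came to 86.3% ± 2.02 and 85.3% ± 1.29 (SD, n = 46 and 72). mir-29c held 11.7% to 14.5% and both copies of mir-29b together well under 1%. The mir-29b values here and below are hairpin counts as deposited. A miR-29b-3p read matches both loci, and how far these counts hold such reads is not known, so they do not measure the level of mature miR-29b. The shares of the family, and the ratios of mir-29a or mir-29c to a mir-29b copy, depend on how such reads were counted. By mean CPM mir-29a ranked 10 among the 1226 hairpins in cortex and 22 in liver, with ranks of 14 and 15 in striatum and hypothalamus, and mir-29c ranked between 46 and 52. In each of the 273 libraries mir-29a had more counts than mir-29c, and mir-29c more than mir-29b-2. The order of the mir-29b copies was not the same everywhere: mir-29b-2 exceeded mir-29b-1 in 78 of 78 cortex, 72 of 72 hypothalamus and 44 of 46 striatum libraries, but in only 18 of 77 liver libraries, where mir-29b-1 was the higher in 55 and 4 were tied. Since each read covers 1 mature miRNA, these levels were not scaled to length.

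On the chromosome 6 locus, mir-29a had 16847 CPM in the lowest, 20605 in the median and 23557 in the highest cortex library. The same 3 values were 12043, 16302 and 21757 CPM in striatum, 11579, 14109 and 16497 CPM in hypothalamus, and 2948, 3706 and 4864 CPM in liver. In CPM no liver library reached the lowest brain library, whereas the brain regions overlapped with each other. Against hypothalamus the direction for mir-29a depended on the scaling, as given below. mir-29b-1, cut from the same primary transcript, was far lower (the median library held 1585 reads of mir-29a for each of mir-29b-1 in cortex and 847 in liver), with 6.24, 12.5 and 21.9 CPM in cortex, 2.69, 8.60 and 38.0 CPM in striatum, and 2.65, 6.82 and 24.7 CPM in hypothalamus. Liver had 0.761, 4.48 and 13.8 CPM of mir-29b-1, so for this member liver and brain overlapped. The highest striatum value stands for 1 read in the library of 26341 counts.

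On the chromosome 1 locus, mir-29b-2 had 20.7, 39.7 and 52.9 CPM in the lowest, median and highest cortex library, 11.1, 26.3 and 42.6 CPM in striatum, and 12.2, 28.8 and 50.4 CPM in hypothalamus. In liver it had 0.465, 2.92 and 6.89 CPM, all below the lowest brain library. mir-29c had 1894, 2789 and 3392 CPM in cortex, 1851, 2501 and 3923 CPM in striatum, and 1764, 2370 and 3178 CPM in hypothalamus, ranges that nearly coincide. In liver mir-29c had 441, 544 and 789 CPM, again below every brain library. The counts behind the mir-29b copies were small in liver: the median library held 14 reads of mir-29b-1 (95% exact Poisson interval 7.65 to 23.5) and 8 of mir-29b-2 (3.45 to 15.8), intervals that cover counting error only. In cortex the medians were 40.5 and 113 reads.

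**Figure D1:**
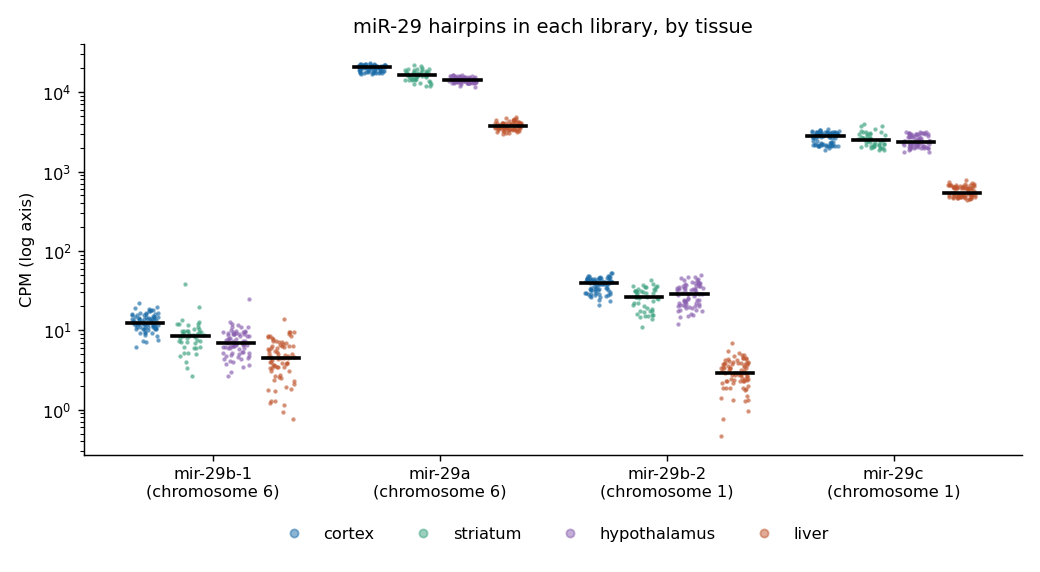
CPM of each miR-29 hairpin (log axis) in every library, coloured by tissue, with a black bar at the median. mir-29a and mir-29c lie orders of magnitude above both mir-29b copies, and liver overlaps with brain in mir-29b-1 but in none of the other 3. The separation is that of CPM on library totals and depends on the scaling.

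The plot of levels by tissue places the separation of liver and brain beside the smaller differences among the brain regions. Among brain regions mir-29a and both mir-29b copies were highest in cortex, and each difference of a member between regions was under 1 log2 unit, the size that a call required together with an adjusted p under 0.05. Log2 ratios here are edgeR estimates with TMM scaling, each with its SE, and p-values were adjusted by the Benjamini-Hochberg method over the 414 hairpins tested. Each SE and p-value takes libraries of 1 animal as separate, although 42 of the 79 animals gave all 4 tissues. With animal as a block, 14.7% of all hairpins were called for cortex and striatum, 27.8% for cortex and hypothalamus and 13.5% for striatum and hypothalamus, near the shares without it given next. None of the 12 tests of a member in a pair of brain regions met both conditions in edgeR or in DESeq2, against 14.5% of all hairpins for cortex and striatum, 28.3% for cortex and hypothalamus and 13.5% for striatum and hypothalamus. At an adjusted p under 0.05 alone, 11 of 12 passed in edgeR and 9 in DESeq2, and 11 passed in edgeR at an unadjusted p under 0.05. mir-29b-1 showed the widest difference, 0.90 ± 0.08 log2 units higher in cortex than in hypothalamus (edgeR adjusted p = 5.034e-25). mir-29a was 0.55 ± 0.03 higher in cortex than in hypothalamus (edgeR adjusted p = 1.584e-54) and 0.30 ± 0.03 higher than in striatum (edgeR adjusted p = 2.233e-18).

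For mir-29a and mir-29b-1 the order was cortex, striatum, hypothalamus, with striatum above hypothalamus by 0.24 ± 0.03 and 0.27 ± 0.10 (edgeR adjusted p = 3.91e-13 and 0.00871). For mir-29b-2 the lower neighbours changed places: cortex exceeded hypothalamus by 0.43 ± 0.06, and striatum differed from hypothalamus by -0.16 ± 0.07 (edgeR adjusted p = 6.723e-12 and 0.0362). mir-29c differed least, by 0.18 ± 0.04 between cortex and hypothalamus, by 0.12 ± 0.05 between striatum and hypothalamus and by 0.06 ± 0.04 between cortex and striatum, the last not past the test (edgeR adjusted p = 0.184). With DESeq2's size factors each of these mir-29c ratios turned negative, to -0.09, -0.02 and -0.06, and the mir-29a and mir-29b-2 ratios of cortex over hypothalamus fell to 0.27 and 0.15. The same change of scaling moved the median of all hairpins between cortex and hypothalamus from -0.04 to -0.32.

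Marker miRNAs of several cell types also differed between the regions. The 8 neuron markers summed to a median of 22618 CPM in cortex, 9518 CPM in striatum and 4048 CPM in hypothalamus, and the pair of oligodendrocyte markers, mir-219a-2 and mir-338, to 5274, 8649 and 4620 CPM. In the same order of regions, the endothelial marker mir-126a had medians of 12312, 10063 and 8575 CPM, the 6 markers of fibroblasts, stellate and mural cells 25117, 16439 and 15957 CPM, and the choroid plexus pair mir-204 and mir-211 4891, 14561 and 17612 CPM. The neuron sum does not stand for each of its hairpins. In cortex mir-128-1 and mir-128-2 had means of 14730 and 7235 CPM, so this pair made up most of the sum there. Mean mir-128-1 was 5421 CPM in striatum and 1588 CPM in hypothalamus. mir-124-2 went the other way, from a mean of 3.68 CPM in cortex to 10.8 CPM in hypothalamus, while the other mir-124 hairpins fell. The part of cell content in the miR-29 differences was not tested. In bulk tissue fewer cells of a type and less RNA per cell cannot be told apart.

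Between brain and liver the direction depended on the scaling for mir-29b-1 and, against hypothalamus, for mir-29a. On library totals all 4 members were higher in each brain region: mir-29b-2 by 3.08 to 3.64 log2 units, mir-29a by 1.92 to 2.42, mir-29c by 2.11 to 2.25 and mir-29b-1 by 0.62 to 1.46. With TMM scaling mir-29b-2 stayed higher in brain, by 1.71 ± 0.07 in cortex, 1.12 ± 0.08 in striatum and 1.28 ± 0.07 in hypothalamus (edgeR adjusted p = 5.404e-72, 4.602e-35 and 4.389e-49), whereas mir-29b-1 was lower in brain, with log2 ratios of -0.46 ± 0.08, -1.09 ± 0.09 and -1.36 ± 0.08, the reverse of its direction on library totals. mir-29a and mir-29c lay between -0.04 and 0.51 with TMM. In all, 5 of 12 member tests met the rule for a call with TMM, 3 with RLE scaling, 3 with DESeq2, 2 with library run as a term and 10 on library totals, against 80.7% of all hairpins for cortex and liver, 81.9% for striatum and liver and 81.6% for hypothalamus and liver with TMM, so the TMM count lies below the background. On library totals 83.1% to 84.3% of all hairpins were called in these pairs. The scaling moved the median of all hairpins in the ratio of cortex over liver from 1.31 with TMM to 3.23 on library totals. Beside this, 1 hairpin, mir-192, made up 291460 ± 22974 CPM in liver (SD, n = 77) and 2126 ± 252 CPM in cortex (SD, n = 78). Library run and tissue were nearly confounded, since liver shared a run with brain through 1 hypothalamus library only. With run as a term mir-29b-2 no longer met the rule, at 0.95 ± 0.34, 0.30 ± 0.34 and 0.52 ± 0.34 for cortex, striatum and hypothalamus over liver.

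Ratios of hairpins within a library need no scaling, and they set the loci side by side. mir-29a stood over mir-29c by nearly the same factor everywhere: the mean log2 ratio of their counts, with 0.5 added to both, was 2.92 ± 0.15 in cortex (SD, n = 78) and 2.74 ± 0.15 in liver (SD, n = 77). Striatum had 2.69 ± 0.24 (SD, n = 46) and hypothalamus 2.56 ± 0.15 (SD, n = 72). The liver libraries, from 2.22 to 3.04, fell inside the range spanned by the brain libraries, from 2.04 to 3.21. The mir-29b copies behaved otherwise. mir-29b-1 over mir-29b-2 averaged -1.54 ± 0.32 log2 units in cortex, -1.52 ± 0.66 in striatum and -1.97 ± 0.57 in hypothalamus, a mir-29b-1 level 2.91, 2.87 and 3.92 times below mir-29b-2 (SD, n = 78, 46 and 72). In liver the mean was 0.55 ± 0.96 (SD, n = 77), or 1.46 times above. The ratio was above 0 in 55 of 77 liver libraries and in 1 of the 196 brain libraries, a striatum one. Between the hairpins of 1 locus the mean log2 ratio of mir-29a over mir-29b-1 was 10.62 ± 0.32 in cortex and 9.74 ± 0.79 in liver, and that of mir-29c over mir-29b-2 was 6.16 ± 0.23 in cortex and 7.55 ± 0.56 in liver (SD, n = 78 and 77). The ratios of the hairpins are descriptions, and no test was run on them. Freedom from scaling does not remove library run, which liver shared with brain through 1 hypothalamus library only. Within hypothalamus mean mir-29b-2 was 41.5 CPM in run B and 19.5 CPM in run I. The part of run in the ratios of liver and brain was not tested.

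Time of day changed mir-29b-1 in liver, and it was the single called curve among the 16 of a member in a tissue, except that with replicate number as a block mir-29b-2 in hypothalamus passed too. There it had 3.62, 6.81 and 9.57 CPM in the lowest, median and highest of 12 libraries at ZT6, and 3.95, 7.19 and 13.8 CPM among 11 at ZT9. At the opposite time it had 1.83, 2.53 and 3.77 CPM among 6 libraries at ZT18, and 0.761, 1.51 and 3.97 CPM among 6 at ZT21. Every ZT9 library lay above every ZT18 library, and ZT9 and ZT21 overlapped only between 3.95 and 3.97 CPM. The times between were intermediate, with medians of 2.97 CPM at ZT0, 5.26 CPM at ZT3, 4.70 CPM at ZT12 and 3.75 CPM at ZT15. Mean levels were 7.44 ± 2.63 CPM at ZT9 (SD, n = 11) and 2.05 ± 1.32 CPM at ZT21 (SD, n = 6), a 3.63-fold difference. The fitted 24 h curve in edgeR spanned 1.66 ± 0.19 log2 units (SE) from trough to peak, or 3.16-fold, and was highest at ZT7.61 ± 0.38 h (edgeR adjusted p = 1.461e-10 over 241 hairpins, of which 4.98% were called).

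The rise was seen on both days. At 0, 3, 6 and 9 h the mean was 2.66 ± 1.49, 6.24 ± 2.11, 7.30 ± 2.32 and 7.85 ± 3.09 CPM (SD, n = 6 each). A day later, at 24, 27, 30 and 33 h, it was 3.43 ± 1.16, 4.49 ± 2.30, 6.52 ± 1.39 and 6.95 ± 2.19 CPM (SD, n = 6, 6, 6 and 5). Fitted to 0 to 21 h alone the peak-to-trough log2 ratio was 1.79 ± 0.23, and to 15 to 36 h alone 1.45 ± 0.22. Liver libraries fell into 5 runs. The 4 runs with 14 to 25 libraries gave peak-to-trough ratios of 1.91, 1.23, 1.46 and 1.28 on the log2(CPM + 0.5) scale, with peaks from ZT7.58 to ZT8.28. The run of 6 libraries was too small for a curve and had 5.29 CPM on average in 2 libraries between ZT3 and ZT12 and 2.79 CPM in 4 libraries outside that window.

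**Figure D2:**
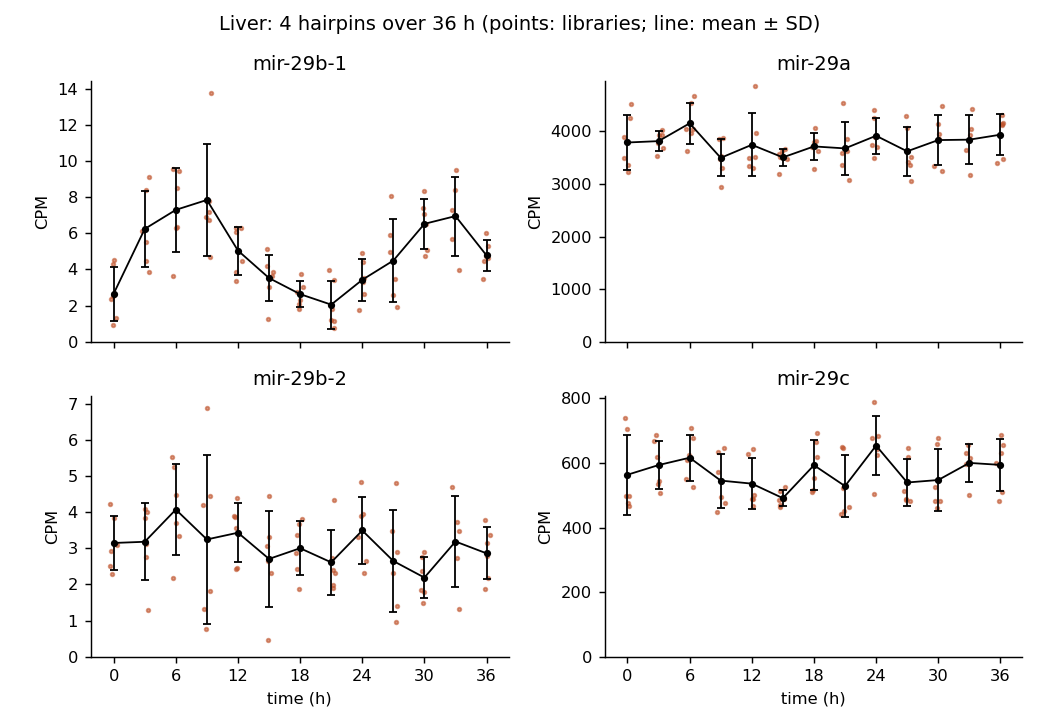
CPM of the 4 hairpins in liver against collection time (0 to 36 h); points are libraries and the line joins means, with SD bars. mir-29b-1 rose from 2.66 CPM at 0 h to 7.85 CPM at 9 h and again from 2.05 CPM at 21 h to 6.95 CPM at 33 h, while the curves fitted to the other 3 did not pass the test.

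The other liver members had shallow curves, as the plot over 36 h shows. mir-29a, from the same transcript as mir-29b-1, had group means between 3507 CPM at ZT15 and 3996 CPM at ZT6, and its curve spanned 0.03 ± 0.04 log2 units from trough to peak (edgeR adjusted p = 0.860). mir-29b-2, the other copy of mir-29b, had group means between 2.61 CPM at ZT21 and 3.32 CPM at ZT0 and a span of 0.05 ± 0.18 (edgeR adjusted p = 0.977). mir-29c had group means between 491 CPM at ZT15 and 608 CPM at ZT0 and a span of 0.08 ± 0.05 (edgeR adjusted p = 0.580). The SE of the mir-29b-2 curve, 0.18, was close to that of mir-29b-1, 0.19. The difference between the mir-29b-1 curve and those of the other members in liver was not tested.

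Within liver libraries the ratio of the mir-29b copies followed the time of day. The mean log2 ratio of mir-29b-1 over mir-29b-2 was 1.16 ± 0.54 at ZT6 (SD, n = 12) and 1.32 ± 0.69 at ZT9 (SD, n = 11), with mir-29b-1 the higher in 12 of 12 and 11 of 11 libraries. At ZT18 it was -0.17 ± 0.69 and at ZT21 -0.48 ± 0.72 (SD, n = 6 each), with mir-29b-1 the higher in 2 of 6 and 1 of 6. mir-29a over mir-29b-1, within 1 locus, ran the opposite way, from 8.97 ± 0.52 at ZT9 to 10.89 ± 0.88 at ZT21 (SD, n = 11 and 6). The group means of mir-29a over mir-29c spanned 0.18 log2 units over the day in liver, against 1.80 for the ratio of the mir-29b copies. In cortex the mir-29b ratio spanned 0.34 log2 units, in hypothalamus 0.63 and in striatum, with its small groups, 1.04.

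**Figure D3:**
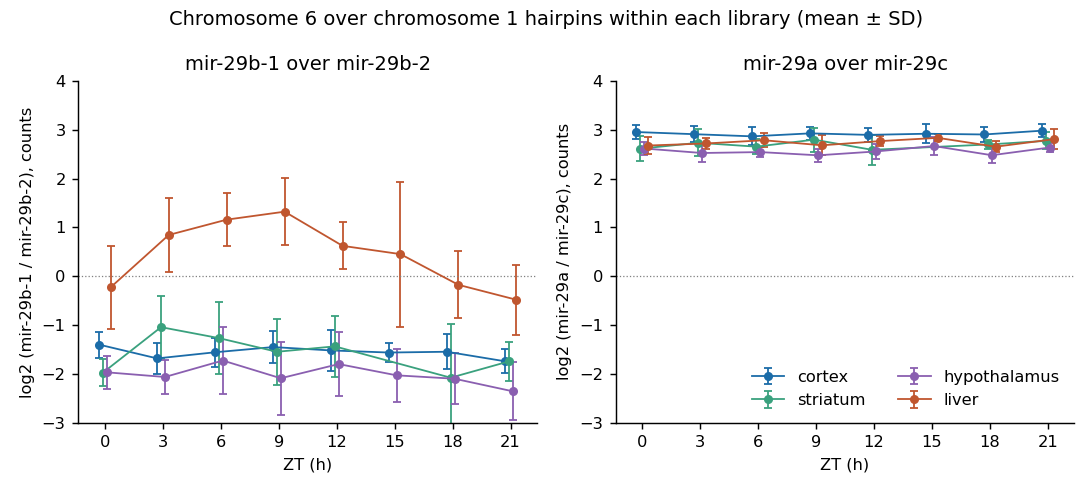
Log2 ratio of counts of mir-29b-1 over mir-29b-2 (left) and mir-29a over mir-29c (right) within each library, against ZT in hours; points are means of a tissue and ZT group and bars are SD. The liver ratio of the mir-29b copies runs from -0.48 at ZT21 to 1.32 at ZT9 and lies above the brain regions at each ZT, while mir-29a over mir-29c stays between 2.48 and 2.98.

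In the brain regions none of the 12 curves of a member passed the test. The count was 0 of 12 in edgeR also at an unadjusted p under 0.05, and 0 of 12 in DESeq2, against a background of 0.254% in cortex (393 hairpins tested), 0.528% in striatum (379 tested) and 0.263% in hypothalamus (380 tested). The largest brain estimate belonged to mir-29b-1 in hypothalamus, whose curve spanned 0.40 ± 0.18 log2 units and a peak at ZT7.51 ± 1.50 h (edgeR unadjusted p = 0.0738, adjusted p = 0.999). Its group means were highest at ZT9, 8.87 ± 6.02 CPM (SD, n = 10), a group whose top library had 24.7 CPM, and lowest at ZT21, 5.52 ± 2.37 CPM (SD, n = 5). The mir-29b-1 curve was 0.17 ± 0.11 in cortex, with a peak at ZT8.50 ± 2.35 h, and 0.32 ± 0.27 in striatum (edgeR adjusted p = 0.986 and 0.998). Group means of mir-29b-1 in cortex lay between 10.9 CPM at ZT21 and 14.1 CPM at ZT6. For mir-29a the brain curves measured 0.01 ± 0.04 in cortex, 0.12 ± 0.11 in striatum and 0.01 ± 0.05 in hypothalamus. Those of mir-29b-2 measured 0.10 ± 0.09, 0.26 ± 0.18 and 0.13 ± 0.14, and those of mir-29c 0.08 ± 0.07, 0.12 ± 0.14 and 0.10 ± 0.08, in the same order. With replicate number as a block, a fit that called 61 hairpins in hypothalamus (15.1%) in place of 1, mir-29b-2 there measured 0.39 ± 0.11 (edgeR adjusted p = 0.0259). When run replaced the number in the model it measured 0.07 ± 0.09 and did not pass. Replicate numbers and runs moved together in this tissue, and the mir-29b-2 level with them: the 8 libraries with number 1 were all in runs A and B and had 33.9 to 50.4 CPM, and of the 12 with numbers 10 to 12, which had 12.2 to 29.2 CPM, 11 were in runs H and I. The part of run in this call was not tested.

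**Figure D4:**
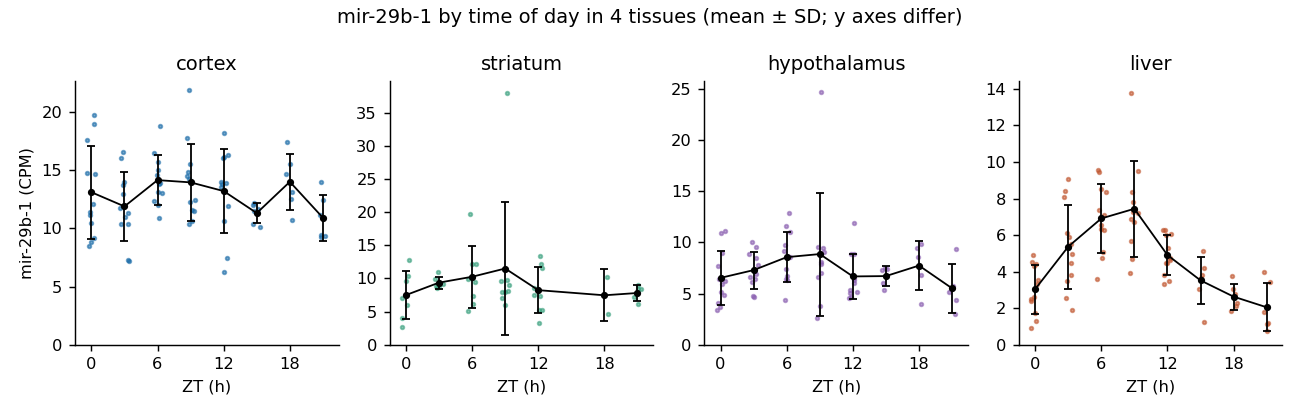
CPM of mir-29b-1 against ZT in hours in the 4 tissues, with y axes that differ; points are libraries and the line joins means with SD bars. Liver means run from 2.05 to 7.44 CPM, and cortex means from 10.9 to 14.1 CPM.

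The plot of mir-29b-1 by tissue shows the flatter brain series beside liver. The test of the difference itself, an interaction of the curve with tissue, was called for mir-29b-1 in each pair that held liver and for no other member. From trough to peak the curve of the difference spanned 1.46 ± 0.21 log2 units between cortex and liver (edgeR adjusted p = 1.407e-07), 1.50 ± 0.28 between striatum and liver (edgeR adjusted p = 0.000124) and 1.25 ± 0.25 between hypothalamus and liver (edgeR adjusted p = 0.00157). Of all hairpins tested, 1.34%, 1.85% and 0.804% were called in these pairs. Among the pairs of brain regions 0 of 12 member tests were called in edgeR, and 0 had an unadjusted p under 0.05; DESeq2 was not run for this comparison. The background there was 0.519% for cortex and striatum, 0% for cortex and hypothalamus and 0.811% for striatum and hypothalamus.

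**Figure D5:**
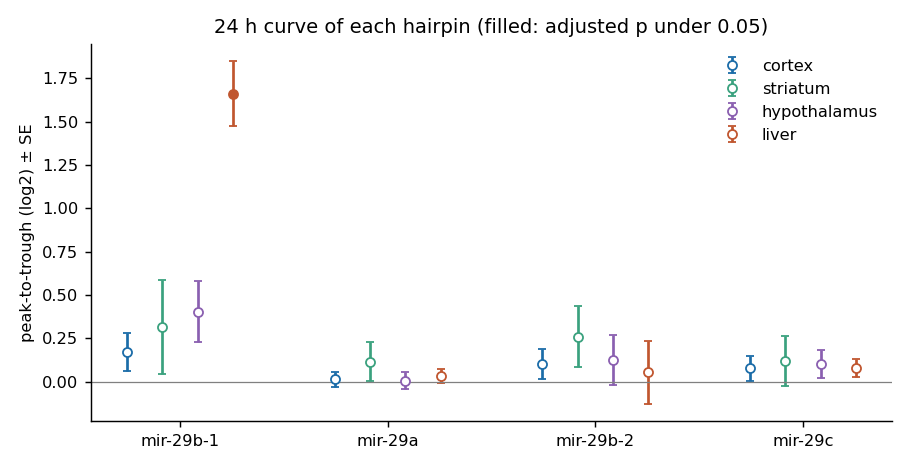
Peak-to-trough log2 ratio of the fitted 24 h curve, with SE bars, for each hairpin and tissue; filled points passed an adjusted p of 0.05. The liver value of mir-29b-1, 1.66, is the only filled point, and the other 15 lie at or below 0.40.

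Other cell types were followed beside the liver curve. The lists here and below were chosen with earlier results of these data known, so their shares of called hairpins are descriptions. The plot of fitted sizes sets mir-29b-1 in liver apart from the other 15 values. In the same liver libraries 3 of 7 blood miRNAs had called curves, or 42.9% beside 4.98% of all liver hairpins: mir-150, a lymphocyte miRNA, at 1.34 ± 0.16 with a peak at ZT4.96, and mir-142a and mir-223, of the blood and myeloid lineages, at 0.56 ± 0.09 and 0.65 ± 0.10 with peaks at ZT4.72 and ZT4.58 (edgeR adjusted p = 1.31e-09, 2.108e-06 and 3.156e-06). The red cell miRNAs mir-451a, mir-144, mir-486a and mir-486b did not pass (edgeR adjusted p = 0.146, 0.796, 0.990 and 0.436). The summed level of the 7 was 2381 to 3896 CPM at ZT6 and 1854 to 3998 CPM at ZT21, with medians of 2965 and 2073 CPM, and no marker was at 0. The 6 markers of fibroblasts, stellate and mural cells summed to medians of 34630 CPM at ZT6 and 34395 CPM at ZT21, and 0 of the 4 tested were called in edgeR or DESeq2, beside the same 4.98%, with 1 at an unadjusted p under 0.05 in edgeR. The hepatocyte markers summed to medians between 304640 and 333790 CPM over the ZT groups. The part of blood or other cells in the mir-29b-1 curve was not tested.

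The list of fibrosis and matrix miRNAs, other than miR-29, held 20 names, of which 14 passed the filter in liver. It included mir-21a, mir-199b, mir-214 and the mir-30 hairpins, known from fibrotic tissue. None had a called liver curve in edgeR or DESeq2, with 1 at an unadjusted p under 0.05 in edgeR, and their median peak-to-trough log2 ratio was 0.10, against 0.14 over all hairpins tested. For cortex over liver 11 of these 14 met the rule for a call, or 78.6% beside 80.7% of all hairpins, 10 of them lower in cortex, with a median log2 ratio of -1.61 against 1.31 over all hairpins with TMM scaling. The direction of the list was computed with TMM scaling only. On library totals the median over all hairpins was 3.23, and the list was not summarized with that scaling.

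Hairpins that, like mir-29b, exist in numbered copies made up another list of 151, of which 29 were tested in liver and 3 had called curves, or 10.3% beside the background of 4.98%. The list holds both mir-29b hairpins, so this share counts the mir-29b-1 curve itself, and it was not computed without them. They were mir-29b-1, mir-16-1 at 0.38 ± 0.07 with a peak at ZT6.55, and mir-26a-2 at 0.55 ± 0.14 with a peak at ZT6.48 (edgeR adjusted p = 0.000556 and 0.0237). Their partner copies had fitted values of 0.23 ± 0.14 for mir-16-2 with a peak at ZT7.74, and 0.37 ± 0.21 for mir-26a-1 with a peak at ZT5.82, neither past the test (edgeR adjusted p = 0.561 and 0.499). In the RefSeq table the main mature miRNAs of these pairs, miR-16-5p and miR-26a-5p, are also identical between the 2 hairpins. Mean levels in liver were 56.0 CPM for mir-16-1, 8.93 CPM for mir-16-2, 3.31 CPM for mir-26a-1 and 8.50 CPM for mir-26a-2.

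Likeness between hairpins was described by Pearson's r of mean log2(CPM + 0.5), among hairpins with a mean of at least 10 CPM. Over the 31 groups of tissue and ZT, points that share tissue and library runs, the nearest to mir-29a were mir-132 (r = 0.999), mir-128-2 (r = 0.998) and mir-6769b (r = 0.997). The nearest to mir-29c were mir-376c, mir-186 and mir-879 (each r = 0.997), and to mir-29b-2 mir-935 (r = 0.994), mir-1981 (r = 0.992) and mir-212 (r = 0.991). In liver mir-128-2, mir-6769b, mir-376c and mir-935 had means of 0.358, 0.00321, 0.425 and 0.0286 CPM, below the 0.5 CPM added, which thus largely sets their liver value. The other neighbours of these members had at least 2.65 CPM there. mir-29b-1 had no such close neighbour: mir-221 (r = 0.876), mir-34a (r = 0.856) and let-7d (r = 0.855) came first, and its own locus partner mir-29a had r = 0.810. Over the 13 liver time points mir-29b-1 was nearest to mir-5099 (r = 0.840), mir-16-1 (r = 0.820) and mir-374b (r = 0.747), and had r = 0.253 with mir-29a and 0.116 with mir-29b-2. mir-29a had r = 0.774 with mir-29c across the loci. In liver mir-29a was nearest to mir-872 (r = 0.923), mir-29b-2 to mir-802 (r = 0.780) and mir-29c to mir-30b (r = 0.941). These values are descriptions, and points 3 h apart share neighbours in time and run.

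The time points ZT0 to ZT12 were covered in a first passage, 0 to 12 h, and a second, 24 to 36 h, and the family differed little between them. None of 16 member tests was called in edgeR or DESeq2, and 3 had an unadjusted p under 0.05 with each tool, against backgrounds of 30.7% in cortex and 0% in striatum, hypothalamus and liver. The 3 were mir-29b-1 and mir-29a in striatum and mir-29b-2 in liver. In striatum mir-29b-1 had 5.20, 9.68 and 38.0 CPM in the lowest, median and highest of 18 first-passage libraries and 2.69, 7.94 and 12.1 CPM among 21 second-passage libraries, a log2 ratio of -0.41 ± 0.16 (edgeR adjusted p = 0.290). mir-29a there had medians of 17313 and 15481 CPM, with a log2 ratio of -0.20 ± 0.08 (edgeR adjusted p = 0.290). mir-29b-2 in liver had medians of 3.63 and 2.78 CPM over 30 and 29 libraries, with a log2 ratio of -0.30 ± 0.14 (edgeR adjusted p = 0.914). In cortex, where many hairpins differed between passages, the member ratios lay between -0.02 and 0.07. With replicate number as a block mir-29c in cortex was called, at 0.12 ± 0.04 (edgeR adjusted p = 0.0438), in a fit that called 17.3% of all hairpins there.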

How the data were processed

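The authors deposited whole-number counts per miRNA hairpin and library, without normalization, in 1 table per tissue. Per the labels' protocols, total RNA was extracted with a miRNeasy kit, a small fraction was enriched and Illumina libraries were made. Per the submitters' processing notes, HTSeq 0.10.0 and STAR 2.7.3a were used with the GRCm38 build; trimming and the treatment of multi-mapping reads are not given in the sources used here. Libraries were mapped to tissue, ZT, animal and run from their labels, with runs read as stretches of library numbers under 1 L code (14 runs). Libraries of a group came from separate animals by their codes. No pair of libraries of a group agreed within counting noise (lowest chi-square per degree of freedom 11.6). Of the 1226 hairpins, 222 had no count.

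Tests used edgeR 4.0.16 (quasi-likelihood, TMM, filterByExpr) in R 4.3.3, with DESeq2 1.42.0 as the other tool; adjusted p-values follow Benjamini and Hochberg over all hairpins tested. Rhythm was a cosine and a sine with a 24 h period, with size 2 times the amplitude on the log2 scale; tissues and passages were compared with ZT as a factor. Rhythm, tissue, interaction and passage fits were tested on simulated data: of 100 liver hairpins (240 tested) given a curve of 0.5 log2, 84 were recovered. Of 94 (387 tested) given curves that differed by 0.5 log2 between cortex and liver, 41 were recovered, and of 97 that differed by 1 log2, 95. The simulated counts had a common spread for all hairpins and no effect of run. These shares pool abundant and scarce hairpins, so they do not tell how often a curve of a mir-29b copy would be found. The rest was done in Python 3.11.15 (SciPy 1.17.1, numpy 2.4.6, pandas 2.3.3), with plots in matplotlib 3.10.9. Sequences and positions came from RefSeq (GRCm38.p6), in which all 4 members matched, and from GENCODE M21. The text names the 4 members, the 3 hairpins most like each (in liver the first for 3 of the members), and called members of the lists. Some were named after their values were seen: the partner copies mir-16-2 and mir-26a-1, the blood miRNAs that were not called, mir-192, mir-128-1 and mir-124-2. The members and lists were chosen with earlier results of these data known. Across tissues, replicate numbers did not pair samples: of 359 pairs of libraries from different tissues with the same number and ZT, 42 were from the same animal, and their deviations had a median r of 0.054. Within hypothalamus the numbers followed library run in part. The alternatives tried are given with their effect in the closing section.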

Additional observations from a re-analysis of the deposited data

Results flagged for a closer look

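The mir-29b-1 curve differed between liver and each brain region by the interaction test, with a peak-to-trough log2 ratio of the difference of 1.46 against cortex, 1.50 against striatum and 1.25 against hypothalamus.

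Among 64 combinations of member and group with 4 to 10 libraries, 5 had a library far from the others by Dixon's criterion at the 95% level, and chance gives about 1 in 20. In striatum at ZT9, replicate 6, the library of 26341 counts, had the highest mir-29b-1, 38.0 CPM from 1 read, against 9.75 CPM in the next library, and the highest mir-29c, 3758 CPM from 99 reads, against 2783 CPM. In hypothalamus at ZT9, replicate 3 had 24.7 CPM of mir-29b-1 from 28 reads, against 9.53 CPM in the next library. In liver, ZT15 replicate 6 had the lowest mir-29a, 3188 CPM against 3484 CPM, and ZT21 replicate 3 had the highest mir-29b-2, 4.33 CPM from 12 reads against 2.74 CPM.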

How the results depend on the processing

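The liver mir-29b-1 curve remained called under each alternative run: DESeq2, other scalings, no filter, run as a term, ZT as a factor, 0 to 21 h or 15 to 36 h alone, the replicate block (1.73 ± 0.19, adjusted p = 5.328e-11) and without each of the 77 libraries (1.57 to 1.71, adjusted p from 3.761e-11 to 1.136e-09). The 3 differences in rhythm between liver and brain regions also remained called; the animal block gave the highest adjusted p, 0.0373 for striatum. With the replicate block, 2 of 16 member curves were called, the second being mir-29b-2 in hypothalamus (0.39 ± 0.11), where that fit called 61 hairpins in place of 1, and 1 of 16 passage tests, mir-29c in cortex (0.12 ± 0.04). Of 12 tests of brain against liver, 3 were called with RLE scaling, 3 with DESeq2, 10 on library totals and 2 with run as a term, in place of 5.

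Ratios that changed sign were these. With RLE scaling and with DESeq2, mir-29c was -0.0639 and -0.0611 for cortex over striatum, -0.0858 and -0.0857 for cortex over hypothalamus, and -0.0219 and -0.0246 for striatum over hypothalamus. mir-29b-1 over liver on library totals was 1.46 in cortex, 0.85 in striatum and 0.62 in hypothalamus. mir-29a for hypothalamus over liver was 0.40 with RLE scaling and with DESeq2, 1.92 on library totals, 0.0167 without the filter and 0.0293 with run as a term. Between passages, mir-29a in cortex was 0.022 on library totals, 0.006 with run and 0.0125 with the replicate block; mir-29b-1 in cortex was -0.0512 with run; mir-29b-2 in cortex was 0.0255 on library totals; mir-29a in liver was 0.011 on library totals; and mir-29c in liver was -0.0093 with run and -0.0306 with the replicate block. The cause was not tested. A fit of the brain libraries alone, chosen after seeing the data, called 0 of 12. Adding 0.1 or 1 to the counts, or leaving out the 4 libraries that stand apart, moved no mean ratio by as much as its SD. Depth limits both mir-29b copies, at a median of 14 and 8 reads in liver.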
